A study of Mus musculus with 6 samples.

Results

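The genes described here are 10 enzymes of serine and one-carbon metabolism, out of 19505 genes measured on Affymetrix arrays of mouse fibrosarcoma cells. They were chosen by name from the pathway, with earlier results of these data known. They are Phgdh, Psat1, Psph, Shmt1, Shmt2, Mthfd1, Mthfd2, Mthfd1l, Aldh1l2 and Asns, and all 10 were measured, each by a single probe set. Fibrosarcomas are cancers of fibroblast-like connective tissue cells. The cells, of strain C57BL/6, carry Rras2(Q72L), a mutant form of a RAS-related GTPase, in both groups. Controls (pLKO, replicates 1 to 3) had received the empty lentiviral vector, and knockdown cells (shRras2, replicates 4 to 6) a vector for 1 shRNA against Rras2, sh#89, so other targets of that shRNA cannot be told apart from the loss of Rras2. All cells grew in DMEM with fetal bovine serum and added L-glutamine, a medium that as a rule supplies serine and glycine but no asparagine. The labels do not say whether replicates were separate cultures. The p-values therefore describe the spread among these arrays alone, which may be technical, and a batch effect along the replicate numbers and the group cannot be told apart.

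Serine is made from the glycolytic intermediate 3-phosphoglycerate by an oxidation (Phgdh), a transamination (Psat1) and a dephosphorylation (Psph). Serine hydroxymethyltransferases then pass a carbon unit from serine to folate and leave glycine, in the cytosol (Shmt1) and in mitochondria (Shmt2). Further enzymes oxidise, reduce or release that unit, which goes into purines, thymidylate and methionine. Transformed cells often make much use of the mitochondrial arm, and the amino acid stress factor ATF4 and the transcription factor MYC are known to drive several of these genes.

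The 6 arrays had median gene signals of 7.22 to 7.28 on the log2 scale of RMA, the authors' normalized signal. Correlations between arrays, across genes, were 0.9941 to 0.9966 within groups and 0.9884 to 0.9931 between them. Rras2 itself had signals of 10.67, 10.75 and 10.82 on the controls and 9.09, 9.69 and 9.21 on knockdown replicates 4, 5 and 6, so the knockdown was weakest on replicate 5. Knockdown minus control came to -1.41 ± 0.14 on the log2 scale (SE; limma adjusted p = 0.00163). Of 12 measured fibroblast markers 7 lay above the 95th percentile of the negative-control probe sets (7.92) in both groups, while Col1a2, Thy1, Dcn, Lum and Fap lay below it in both. Of these 12, 3 rose (Pdgfrb, Col3a1 and Dcn) and 0 fell, and their summed linear signal was 44520 to 45230 on the controls and 47500 to 49360 on the knockdown arrays. All 7 epithelial, 6 immune and 6 endothelial markers lay below it in both groups. Skeletal muscle markers moved with the group as well: of 14 measured, 0 lay above that percentile in the controls and 9 in the knockdown, 11 rose and 0 fell, and their summed linear signal was 1364 to 1556 on the controls and 5603 to 9859 on the knockdown arrays, lowest on replicate 5. Myod1, Tnnc2, Ckm, Des and Ttn lay below the percentile in both groups. The part of these shifts in the enzyme results below was not tested.

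Psat1, Shmt2 and Mthfd1l fell in the knockdown, to about 68 to 74% of the control signal, and none of the 10 enzymes rose. Phgdh, Psph, Mthfd2 and Aldh1l2 did not pass the test, and their differences lay between -0.06 and 0.18 on the log2 scale. Shmt1, Mthfd1 and Asns had lower signals on every knockdown array than on any control but did not pass the threshold, an adjusted p of 0.05 in limma over all 19505 genes. Thus 3 of 10 enzymes were lower and 0 higher, where 5.21% of all genes tested passed, 2.22% as lower and 2.99% as higher. Many genes behind those shares are dim: 11144 of the 19505 lay below 7.92 in both groups, against 1 of the 10 enzymes. Without the 30% dimmest genes, 4 of the 10 enzymes were lower, against 4.59% of the genes kept. In 7 of the 10 all knockdown arrays lay below all controls, against 13.9% of all genes, and in 0 above them, against 11.6%. Phgdh is among these 7, by less than the spread among its controls. The difference was below 0 for 8 of the 10, against 53.2% of all genes, and 6 of the 10 had an unadjusted p under 0.05, against 19.1%. The median difference of the 10 was -0.30, and that of all genes -0.01. These arrays measure RNA from all cells together, so fewer cells of a kind and less RNA per cell cannot be told apart. Leaving out 1 array changed the number of falls. It was 1 without control replicate 1 or 3 or knockdown replicate 4 or 6, 2 without control replicate 2 and 3 without knockdown replicate 5. Of all genes, 0.574 to 0.754% were lower where the count was 1, 1.14% where it was 2 and 2.32% where it was 3. The 3 without knockdown replicate 5 were Psat1, Shmt1 and Mthfd1l. With eBayes fitted with a trend on signal and robust settings, 6 of the 10 passed as lower, against 4.83% of all genes.

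**Figure D1:**
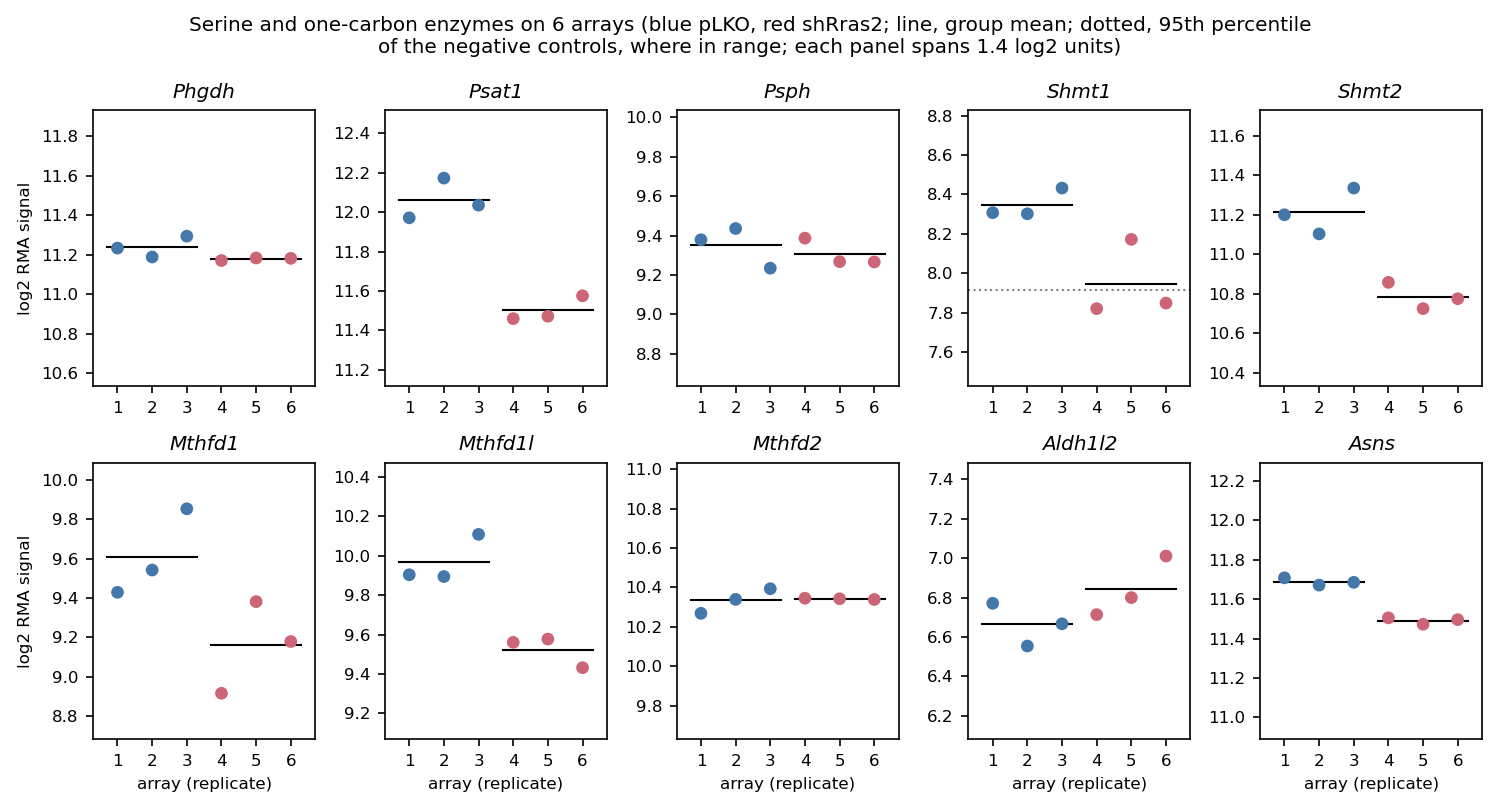
Log2 RMA signal (vertical axis) of each enzyme on the 6 arrays (horizontal axis, by replicate number), with pLKO controls in blue, shRras2 knockdown arrays in red, lines at the group means and a dotted line at 7.92, the 95th percentile of the negative controls, where it is in range. Psat1, Shmt2, Mthfd1l and Asns show a clear gap between the groups, while Mthfd2 and Phgdh lie nearly level.

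The 3 steps from 3-phosphoglycerate to serine behaved unequally. Phgdh, the dehydrogenase that opens the route, had control signals of 11.23, 11.19 and 11.29 and knockdown signals of 11.17, 11.18 and 11.18. The knockdown arrays lay just below the lowest control, by less than the spread among the controls. The log2 difference of Phgdh was -0.06 ± 0.07 (SE; limma adjusted p = 0.73), with a 95% interval from -0.23 to 0.11, so a change to less than 85.4% of the control signal lies outside the interval.

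Psat1, the transaminase that takes its amino group from glutamate, had signals of 11.97, 12.17 and 12.04 on the controls. On knockdown replicates 4, 5 and 6 they were 11.46, 11.47 and 11.58. The groups were well separated, and replicate 5, where Rras2 was least reduced, was as low as replicate 4. Control arrays averaged 12.06 ± 0.10 and knockdown arrays 11.50 ± 0.06 (SD, n = 3 each), a log2 difference of -0.56 ± 0.09 (SE; limma adjusted p = 0.00861). In linear terms 68.0% of the control signal was left (95% interval 59.5 to 77.7%). The Psat1 interval of -0.75 to -0.36 on the log2 scale and that of Phgdh do not overlap, although the difference between these genes was not itself tested. Psat1 was the only one of the 10 whose call stayed in all 6 fits without 1 array (adjusted p up to 0.0437).

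Psph, the phosphatase of the last step, had control signals of 9.38, 9.44 and 9.23 and knockdown signals of 9.39, 9.27 and 9.27. The groups overlapped, and the log2 difference was -0.04 ± 0.09 (SE; limma adjusted p = 0.85). Without control replicate 2 it was 0.00028, so no direction is given for it.

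**Figure D2:**
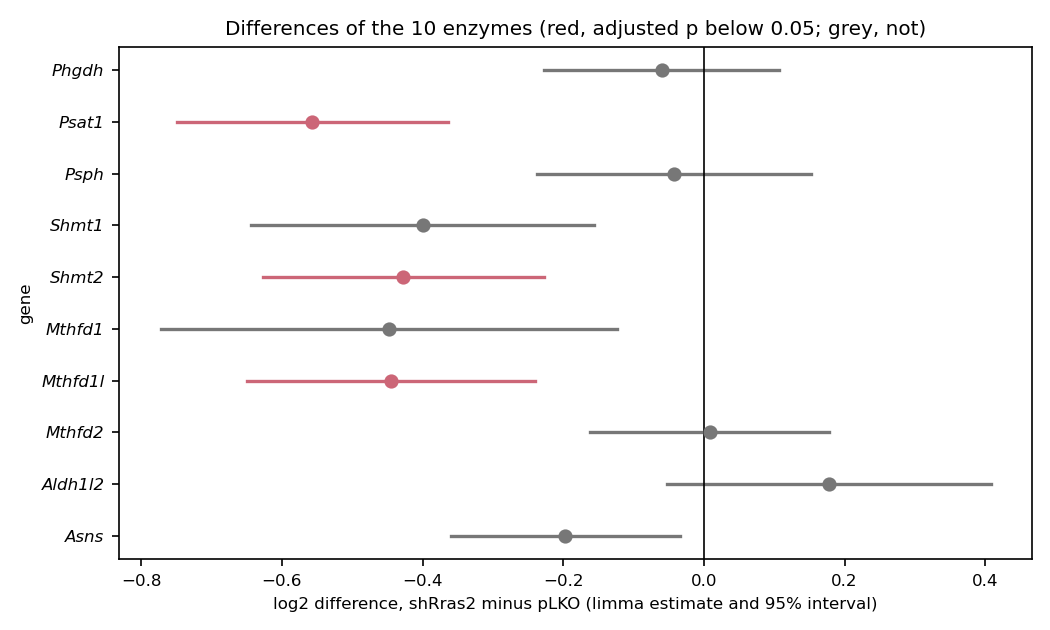
Log2 difference, shRras2 minus pLKO (horizontal axis), of each enzyme (vertical axis), as the limma estimate (point) with its 95% interval (line), in red where the adjusted p was below 0.05. Psat1, at -0.56, is the lowest, and the intervals of Phgdh, Psph, Mthfd2 and Aldh1l2 include 0.

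Both serine hydroxymethyltransferases were lower on all knockdown arrays. Shmt2, the mitochondrial form, had control signals of 11.20, 11.10 and 11.34 and knockdown signals of 10.86, 10.72 and 10.77. The gap between the groups was wider than the spread in either of them. It fell from 11.21 ± 0.12 to 10.79 ± 0.07 (SD, n = 3 each), a log2 difference of -0.43 ± 0.09 (SE; limma adjusted p = 0.0279), with 74.4% of the control signal left (95% interval 64.7 to 85.4%). Its call was kept without control replicate 2 and lost without each of the other arrays (adjusted p up to 0.0986).

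Shmt1, the cytosolic form, had control signals of 8.31, 8.30 and 8.43, and knockdown signals of 7.82, 8.17 and 7.85. Knockdown replicate 5 stood nearer the controls than replicates 4 and 6, which lay under 7.92, in the range of the brightest negative controls, where a change can be understated. The log2 difference was -0.40 ± 0.11 (SE) and did not pass (limma adjusted p = 0.0733). It passed without knockdown replicate 5 (adjusted p = 0.0168, difference -0.51), without the 30% dimmest genes (0.0465), with array weights (0.0365) and with trend and robust settings (0.0259).

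Within an array, the log2 signal of Shmt2 minus that of Shmt1 averaged 2.87 ± 0.06 on control and 2.84 ± 0.25 on knockdown arrays (SD, n = 3 each), and the groups overlapped. Only how this value moves between groups can be read, since different probe sets are not on a common scale of level. Thus no shift between the mitochondrial and the cytosolic form was seen beyond the spread, which knockdown replicate 5 (2.55, against 3.04 and 2.92 on replicates 4 and 6) widened.

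The folate enzymes that act on the carbon unit came next. Mthfd1, a cytosolic protein with dehydrogenase, cyclohydrolase and formate-folate ligase activities, had control signals of 9.43, 9.54 and 9.85 and knockdown signals of 8.92, 9.38 and 9.18. The groups did not overlap, but knockdown replicate 5 came close to control replicate 1, and the spread was the widest of the 10 enzymes in both groups. The log2 difference was -0.45 ± 0.14 (SE) and did not pass (limma adjusted p = 0.125). With trend and robust settings it did (adjusted p = 0.0364).

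Mthfd1l, the mitochondrial ligase that releases formate for export to the cytosol, had control signals of 9.90, 9.89 and 10.11. Its knockdown signals were 9.56, 9.58 and 9.43. All 3 knockdown arrays lay clearly below the controls, replicate 5 with the others. It fell from 9.97 ± 0.12 to 9.52 ± 0.08 (SD, n = 3 each), a log2 difference of -0.45 ± 0.09 (SE; limma adjusted p = 0.0261), and 73.4% of the control signal was left (95% interval 63.7 to 84.7%). The call stayed without knockdown replicate 5 and was lost without each of the other arrays (adjusted p up to 0.102).

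Mthfd2, the mitochondrial dehydrogenase and cyclohydrolase, known for its high level in many tumors, had control signals of 10.27, 10.34 and 10.39 and knockdown signals of 10.35, 10.34 and 10.34. The groups overlapped, with a log2 difference of 0.01 ± 0.07 (SE; limma adjusted p = 0.972) and an interval from -0.16 to 0.18, that is 89.4 to 113% of the control signal. Mthfd2 and Mthfd1l, which act in sequence in mitochondria, therefore had intervals of the difference that do not overlap (-0.65 to -0.24 for Mthfd1l). Centring each array on its median turned the sign of Mthfd2 (-0.03), as did leaving out control replicate 1 (-0.02).

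The within-array difference of Mthfd2 and Mthfd1 was 0.84, 0.80 and 0.54 on the controls and 1.43, 0.96 and 1.16 on knockdown replicates 4, 5 and 6. Every knockdown array was above every control, and the mean was higher by 0.46 on the log2 scale. For Mthfd1l and Mthfd1 the same value averaged 0.36 ± 0.11 on control and 0.36 ± 0.24 on knockdown arrays (SD, n = 3 each), with overlapping groups. Relative to the cytosolic Mthfd1, the Mthfd2 signal was thus higher in the knockdown and that of Mthfd1l level, as a description with no test. Mthfd2 itself differed by only 0.01, so its relative rise restates the lower Mthfd1 signal (-0.45), a difference that did not pass.

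**Figure D3:**
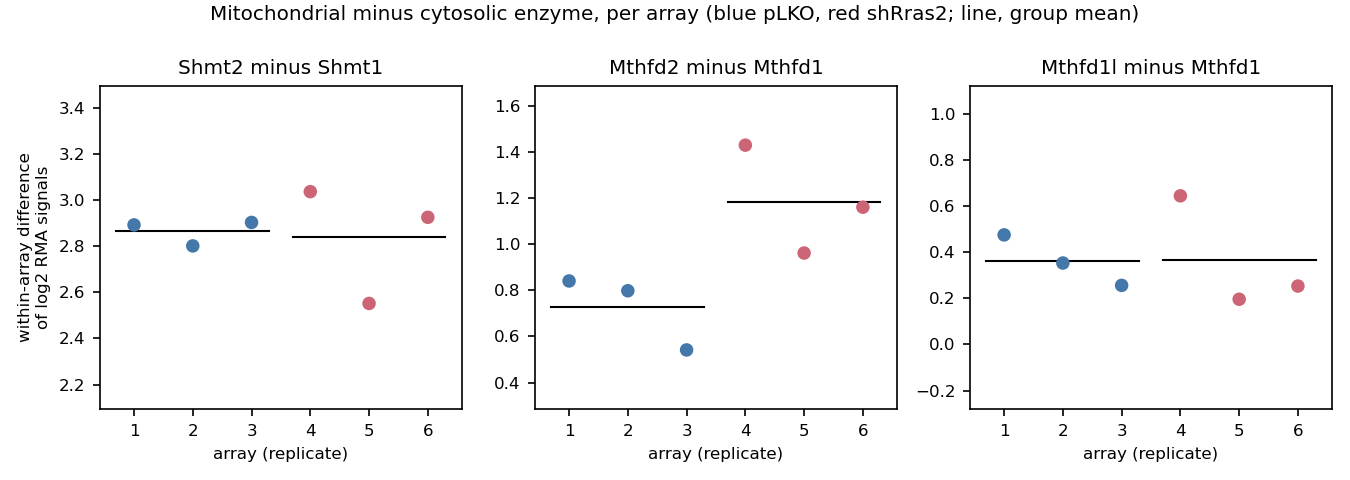
Within-array difference of log2 RMA signals (vertical axis) between a mitochondrial and a cytosolic enzyme on the 6 arrays (horizontal axis, by replicate number; controls blue, knockdown red, lines at group means). The groups separate for Mthfd2 minus Mthfd1, with 0.54 to 0.84 on controls and 0.96 to 1.43 on knockdown arrays, and overlap in the other panels.

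Aldh1l2, the mitochondrial formyltetrahydrofolate dehydrogenase, which oxidises the carbon unit to carbon dioxide and yields NADPH, was dim. Its signals were 6.77, 6.55 and 6.67 on the controls and 6.71, 6.80 and 7.01 on the knockdown arrays, all below 7.92. The groups overlapped, and knockdown replicate 6 was the highest. The log2 difference of 0.18 ± 0.10 (SE) did not pass (limma adjusted p = 0.395), and at this signal a change could be understated or missed.

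Asns, asparagine synthetase, takes aspartate and the amide nitrogen of glutamine to make asparagine and is a well-known target gene of ATF4. Its signals were 11.71, 11.67 and 11.69 on the controls and 11.51, 11.47 and 11.50 on the knockdown arrays. The arrays of a group lay very close together, with SDs of 0.02 in both groups, and the groups were separated by a gap many times that spread. The log2 difference was -0.20 ± 0.07 (SE), or 87.2% of the control signal (95% interval 78.0 to 97.6%), and it did not pass (limma adjusted p = 0.172). The SE is larger than the SDs because limma draws each gene's variance toward that of all genes. With the trend and robust settings, which draw it toward genes of like signal, Asns passed (adjusted p = 0.0182).

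The stretch upstream of the start of Asns is shown because it holds a match to the core of the ATF4 composite element. Those of Psat1 and Shmt2 are shown as examples of genes that fell and hold none. Mthfd1l also fell and holds none, and its stretch is not shown. The stretches shown are RefSeq sequences of GRCm38.p6, 250 bases up to the start, 5′ to 3′ on the gene's strand, with a match in capitals. Asns lies at chr6:7693210-7693459, Psat1 (the outermost of its 2 windows) at chr19:15925060-15925309 and Shmt2 at chr10:127522445-127522694, all on the minus strand.
Asns: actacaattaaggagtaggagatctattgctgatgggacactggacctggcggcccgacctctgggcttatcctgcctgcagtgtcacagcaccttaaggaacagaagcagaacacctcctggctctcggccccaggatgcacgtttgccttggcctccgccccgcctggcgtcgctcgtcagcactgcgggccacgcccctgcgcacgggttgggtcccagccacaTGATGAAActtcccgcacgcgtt
Psat1: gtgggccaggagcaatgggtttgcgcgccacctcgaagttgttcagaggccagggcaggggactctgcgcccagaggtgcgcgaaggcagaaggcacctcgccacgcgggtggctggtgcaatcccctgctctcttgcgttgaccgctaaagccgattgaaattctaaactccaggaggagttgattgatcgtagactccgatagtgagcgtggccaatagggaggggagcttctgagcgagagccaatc
Shmt2: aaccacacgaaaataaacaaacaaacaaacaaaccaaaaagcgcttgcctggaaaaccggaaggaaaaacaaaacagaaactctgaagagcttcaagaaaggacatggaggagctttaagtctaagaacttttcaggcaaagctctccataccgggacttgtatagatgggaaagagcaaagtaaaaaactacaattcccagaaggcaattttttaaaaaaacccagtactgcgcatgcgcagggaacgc
The core searched was TGATGNAA, on both strands, in windows of 300 bases that run 50 bases past the start, and in Asns it begins at -23 from the start. RefSeq windows were found for 9 of the 10 enzymes, and 1 of their 10 windows held the core, against 3.97% of 32851 windows in the table. The E-box CACGTG, the element that MYC binds, reads the same on both strands, and its last letters, TG, can be the first of that core. It was in 0 of the 10 windows and in 7.15% of all windows. A match is a description of the letters and not a bound site, and the absence of one says only that these letters are not in this window.

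**Figure D4:**
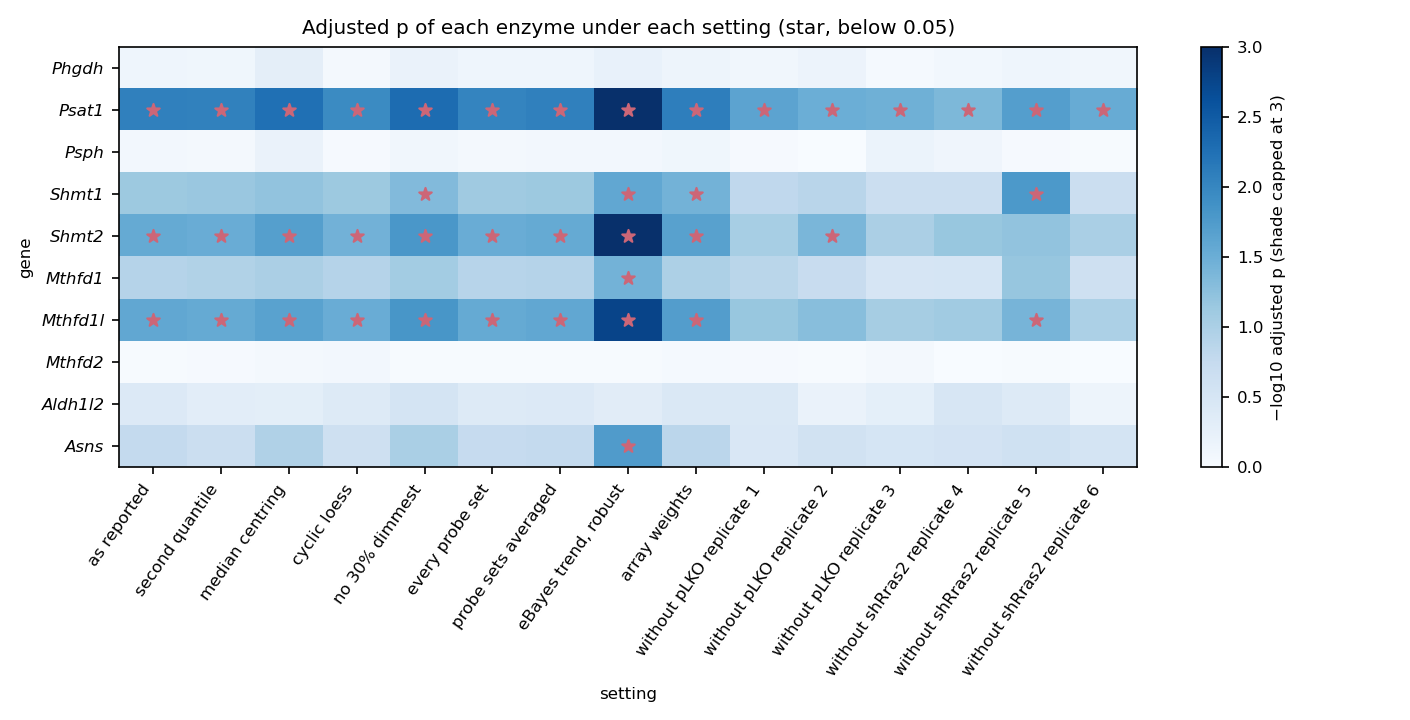
Adjusted p of each enzyme (vertical axis) under the reported fit and the 14 alternatives (horizontal axis), as −log10 on a shade capped at 3, with a star where it was below 0.05. Psat1 has a star in every column, Shmt2 and Mthfd1l in all columns with 6 arrays, and Phgdh, Psph, Mthfd2 and Aldh1l2 in none.

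Other genes of the pathway were counted in 7 lists by role, also chosen with earlier results of these data known. They hold 115 measured genes in all, of which 12 (10.4%) fell and 2 (1.74%) rose, where 2.22% of all genes fell and 2.99% rose. The counts of single lists below are to be read against these shares, which include many dim genes. With the 30% dimmest genes left out, 4.59% of the genes kept were lower. The lists hold dim genes too, and their medians include them. Below 7.92 in both groups lay 8 of 22 other folate, 7 of 14 methionine, 2 of 22 purine and 3 of 12 aspartate list genes. The same held for 4 of 10 transporters, 6 of 28 genes of the ATF4 list and 1 of 10 regulators. Atf4, Eif2ak4 and Tyms each stand in more than 1 list. The 22 other folate and one-carbon genes had 3 falls, 1 rise and 18 members that did not pass (median -0.01). Slc19a1, the reduced folate carrier of the plasma membrane, had signals of 10.48, 10.31 and 10.49 on the controls and 9.91, 10.00 and 9.83 on the knockdown arrays. It fell by 0.52 on the log2 scale (SE 0.09; limma adjusted p = 0.0124). Sfxn2, a relative of the mitochondrial serine carrier Sfxn1, fell by 0.56, and Gcsh, the lipoyl carrier protein of the glycine cleavage system, by 0.46.

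Slc25a32, the carrier of folate into mitochondria, went the other way. Its signals were 8.38, 8.31 and 8.29 on the controls and 8.73, 8.74 and 8.77 on the knockdown arrays, a rise of 0.42 ± 0.07 (SE; limma adjusted p = 0.0148) with no overlap. The plasma membrane and the mitochondrial folate carrier thus changed in opposite directions. None of these 4 calls stayed in all 6 fits without 1 array: Sfxn2 stayed in 3, Slc19a1 and Slc25a32 in 2 each and Gcsh in 1. Sfxn1, which carries serine into mitochondria, had a difference of -0.21 and Tyms, thymidylate synthase, of -0.13, and neither passed (limma adjusted p = 0.238 and 0.379). Both are outside the naming rule.

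Genes of nucleotide synthesis, only some of which use the carbon units, were measured as well. Purine and thymidylate synthesis was covered by 22 genes, some of pyrimidine synthesis and salvage among them. There were 4 falls, 0 rises and 18 that did not pass (median -0.21). In 16 of the 22 all knockdown arrays lay below all controls, against 13.9% of all genes. Gart, which carries out the formyl transfer early in the purine route, fell by 0.44, from 11.35 ± 0.04 to 10.90 ± 0.10 (SD, n = 3 each; limma adjusted p = 0.0178). Umps, of pyrimidine synthesis, and the salvage enzyme Aprt each fell by 0.36, and Prps1, which makes the ribose donor of nucleotides, by 0.33. Atic, the other formyl transferase of the purine route and outside the naming rule, had a difference of -0.28 and did not pass (limma adjusted p = 0.178). Without 1 array, Gart stayed in 2 of the 6 fits, Umps and Aprt in 1 each and Prps1 in 0. With all arrays in, the count of falls ranged from 3 with cyclic loess, where Prps1 did not pass (adjusted p = 0.0522), to 9 with trend and robust settings, against 4.83% of all genes.

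The methionine cycle and the routes that leave it had 2 falls and 0 rises among 14 genes, and 12 did not pass (median 0.04). That median includes 7 genes below 7.92 in both groups. The brighter genes of the list had differences from -0.44 (Srm) to 0.30 (Mtap, outside the naming rule, not past). Ahcy, the hydrolase that clears S-adenosylhomocysteine, had signals of 10.91, 10.86 and 10.89 on the controls and 10.46, 10.64 and 10.33 on knockdown replicates 4, 5 and 6, and fell by 0.41 (SE 0.09; limma adjusted p = 0.0408). Srm, spermidine synthase, fell by 0.44. The calls stayed in 1 and 3 of the 6 fits without 1 array. The number of falls in this list was 5 after centring on the median, without the dimmest genes, and with trend and robust settings. In these fits 2.91%, 4.59% and 4.83% of the genes tested were lower.

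Of 12 genes of aspartate, glutamate and proline metabolism 1 fell, Got1, the cytosolic aspartate transaminase (median -0.13). Its fall of 0.46 (limma adjusted p = 0.023) was past the threshold in 2 of the 6 fits that left out an array. Of 10 serine and glycine transporters 1 fell, Slc1a5, the carrier of glutamine and small neutral amino acids, with signals of 9.80, 9.81 and 10.02 on the controls and 9.14, 9.56 and 9.18 on knockdown replicates 4, 5 and 6. It fell by 0.59 (SE 0.12; limma adjusted p = 0.0313) and stayed in 1 of those fits. The other 9 transporters lay between -0.23 and 0.26, among them the glycine transporter Slc6a9 at 0.26 and the serine carrier Slc1a4 at 0.09 (list median -0.06).

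Calls at the adjusted threshold among ATF4 and its stress targets were near the shares of all genes (2.22% lower, 2.99% higher). Of 28 measured 1 fell, Eif4ebp1, an inhibitor of translation initiation, by 0.43. The AP-1 family gene Jdp2 rose, by 0.42, and 26 did not pass (median 0.02). An unadjusted limma p under 0.05 was found for 9 of the 28, against 19.1% of all genes. In 6 of the 28 all knockdown arrays lay below all controls, against 13.9% of all genes, and in 6 above them, against 11.6%. Eif4ebp1 stayed in 1 and Jdp2 in 2 of the 6 fits without 1 array, and with trend and robust settings, where 4.83% of all genes were lower and 4.95% higher, 4 fell and 4 rose. Atf4 itself had a difference of 0.08 ± 0.08 (SE; limma adjusted p = 0.622). The 26 that did not pass had differences from -0.31 (Slc7a1) to 0.52 (Atf3, below 7.92 in both groups). Among them, Ddit3 was at 0.33, Trib3 at 0.17, Chac1 at 0.01 and Slc7a5 at -0.23. Apart from Atf4, the genes given here with those differences are outside the naming rule.

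Of the 10 measured regulators of the pathway 0 passed in limma, 2 had an unadjusted p under 0.05, near the 19.1% of all genes, and 3 fell with trend and robust settings, against 4.83% (median -0.09). The 2 with the lowest p were Myc, with signals of 11.29, 11.30 and 11.46 on the controls and 10.92, 10.82 and 11.27 on knockdown replicates 4, 5 and 6, and Eif2ak4, the amino acid sensing kinase GCN2. Their differences were -0.34 ± 0.12 and -0.30 ± 0.10 (SE; limma adjusted p = 0.161 and 0.137).

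**Figure D5:**
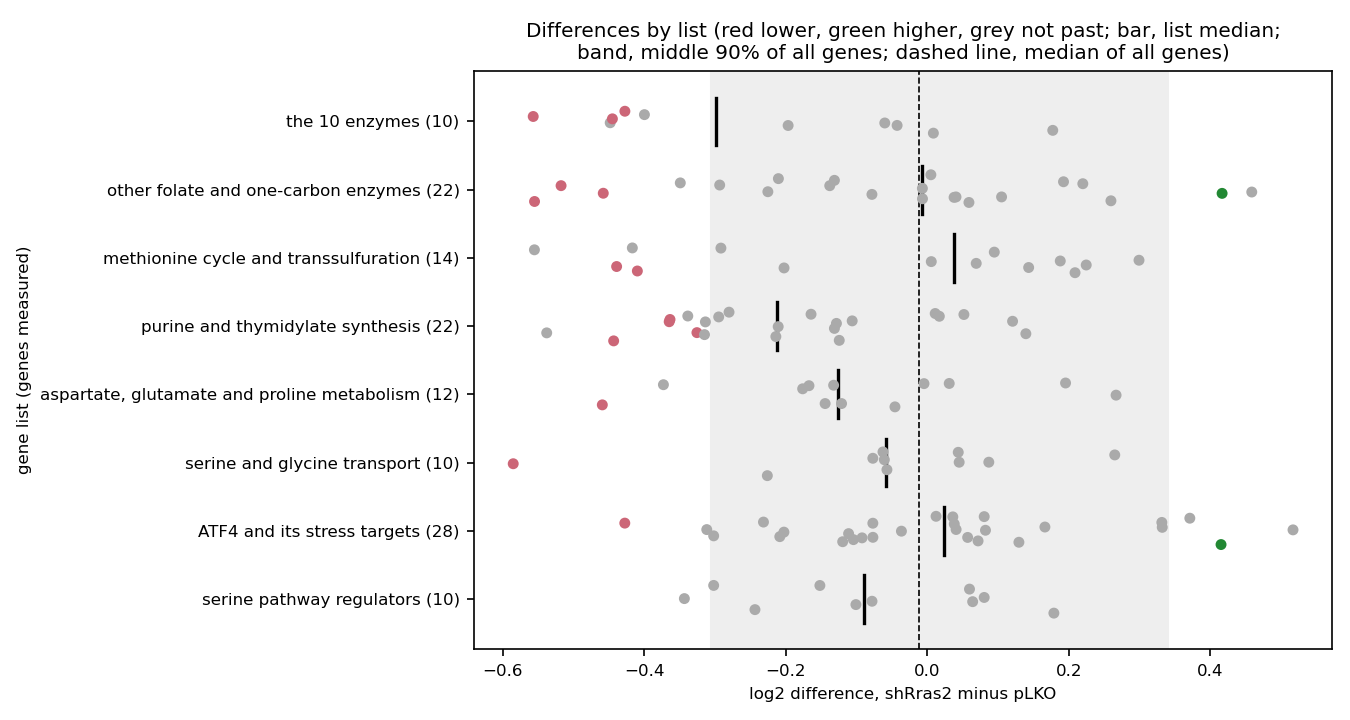
Log2 difference, shRras2 minus pLKO (horizontal axis), of every measured gene of the 10 enzymes and the 7 other lists (vertical axis, with the number of genes), in red if lower, green if higher and grey if not past the threshold, with the list median as a bar, the middle 90% of all genes as a band from -0.31 to 0.34 and the median of all genes dashed. The purine list and the 10 enzymes have medians of -0.21 and -0.30.

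The genes whose profile over the 6 arrays was nearest to that of Psat1, the enzyme with the lowest p, were Slc10a3, Fkbp11, Dpysl2, Vcam1 and Sdc4. Likeness was the root mean square difference of log2 signals after each gene was centred on its mean, among 7963 genes above the 95th percentile of the negative controls. It was 0.047 for Slc10a3 and 0.064 for Sdc4. All 5 had passed as lower, with differences between -0.62 (Sdc4) and -0.46 (Fkbp11). A profile near that of Psat1 brings a like difference with it, so these calls follow from how the genes were picked. Vcam1 encodes a cell adhesion molecule, Sdc4 a heparan sulfate proteoglycan and Fkbp11 a prolyl isomerase of the endoplasmic reticulum. Slc10a3, of the bile acid transporter family, and Dpysl2, a microtubule-binding protein, complete the 5.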

How the data were processed

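The authors deposited a log2 signal for each probe set. The submitters' processing notes name RMA and R 3.6.3. RMA subtracts background, makes the arrays' quantiles equal and combines probes into 1 value. The RMA package's version, any filters and the genome build were not given in the sources used here. The table has 29129 probe sets, of which 6923 are controls; 19572 have 1 gene symbol in the platform annotation, 0 several and 2634 transcript probe sets none. The brightest probe set was kept for 55 genes with several, which left 19505 genes. Any 2 arrays had at most 7 values in common. No detection calls come with the values, so the 5222 negative-control probe sets give the reference for dim signals.

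The 3 knockdown and 3 control arrays were compared in R 4.3.3 with a two-sided limma 3.58.1 fit (lmFit, then eBayes, without covariates; residual df 4, prior df 4.85). P-values were adjusted by Benjamini and Hochberg's method over every gene, and 0.05 was the threshold. The number of arrays limits the precision; the median SE was 0.096. Levels are means ± SD, and intervals are 95% intervals of limma's estimate. The method was tested on simulated data. It recovered 23 of 67 changes of 0.5 on the log2 scale, 57 of 67 of 1 and 65 of 66 of 2. Of 19305 unchanged genes 7 were called. A change near 0.5 can thus be missed. The simulation changed far fewer genes than passed here, so its rates are not those of these data. The members and lists were chosen with earlier results of these data known. Of 200 list entries 173 were measured, and the others were not analysed here.

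The naming rule takes Rras2, the 10 enzymes, for each pathway list at most 4 past the threshold, by size of change, plus at most 2 others past it of opposite direction, or failing any the 2 with the lowest p, and the 5 genes nearest in profile to the enzyme with the lowest p. The fit was repeated after a second quantile normalization, after centring on each array's median, with cyclic loess, leaving out the 30% dimmest genes, testing every transcript probe set, averaging probe sets, eBayes with trend and robust settings, array weights, and leaving out each array in turn.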

Additional observations from a re-analysis of the deposited data

How the results depend on the processing

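With trend and robust settings 1908 genes passed (965 higher, 943 lower), against 1017 as reported (584 higher, 433 lower), and 6 of the 10 enzymes were lower, Shmt1, Mthfd1 and Asns besides the 3 reported. Under the same settings the counts were 2 higher for other folate genes, 5 lower and 2 higher for the methionine list, 9 lower for the purine list, 2 lower and 1 higher for the transporters, 4 lower and 4 higher for the ATF4 list and 3 lower for the regulators. Median centring shifted the median of all genes by -0.0405. It gave 506 genes higher and 567 lower (2.91%), with 5 lower in the methionine and 7 in the purine list. Leaving out the 30% dimmest genes also gave 5 and 7, where 4.59% of the genes kept were lower. Cyclic loess gave 3 in the purine list, where Prps1 was lost. Without 1 array the genes past the threshold ranged from 392 to 1136 (280 to 684 higher, 112 to 452 lower), and the enzymes that were lower from 1 to 3. For the lists these fits gave falls of 0 to 3 (other folate), 0 to 3 (methionine), 0 to 4 (purine), 0 to 1 (aspartate and glutamate), 0 to 1 (transport), 0 to 2 (ATF4) and 0 to 1 (regulators), and rises of 0 to 1 (other folate), 0 to 1 (methionine) and 0 to 3 (ATF4). Psat1 passed under all 14 alternatives, with differences from -0.60 to -0.50, and Shmt2 and Mthfd1l under the 8 that used all arrays. Rras2 passed in all 14 (-1.59 to -1.29). Signs that turned were those of Psph without control replicate 2 and of Mthfd2 without control replicate 1, where the fits without 1 array ranged from -0.10 to 0.00028 and from -0.024 to 0.038, and of Mthfd2 with median centring (-0.032). The cause of these changes was not tested. Aldh1l2 lay in the range of the negative controls, and signal limits what can be said of it. No paired analysis was possible because the groups share no replicate numbers.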
